A study of Mus musculus with 8 samples.

Results

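Control H3K36me3 peaks that lay in non-coding genes and pseudogenes of mouse embryonic stem cells were examined for whether they were still called after knockdown of Setd2. They are the control peaks on chromosomes 1 to 19 whose midpoint fell in a RefSeq gene of any biotype other than protein-coding and in no protein-coding gene. There were 850 such peaks among 30634 control peaks in all and 30499 on chromosomes 1 to 19. The study profiled the mark by ChIP-seq, with 2 replicates of H3K36me3 ChIP and 2 of input in each of 2 conditions. The growth notes describe feeder-free mouse embryonic stem cells with a knockdown of Setd2 that doxycycline induces. They grew as spheres in N2B27 medium with 1 µM PD0325901, a MEK inhibitor, 3 µM CHIR99021, a GSK3 inhibitor, and 1000 U/ml LIF, the leukaemia inhibitory factor. Control cells received no doxycycline and have the genotype label control, and knockdown cells received 1 µg/ml doxycycline for 4 days. The labels do not say how many clones or separate cultures were used, nor whether the control cells are the same line left untreated or a line of their own.

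H3K36me3 is trimethylation of lysine 36 on histone H3. SETD2, the main enzyme that places it in mammalian cells, travels with elongating RNA polymerase II, so the mark lies over the bodies of transcribed genes and is usually low at their starts. RNA polymerase II also transcribes long non-coding RNA (lncRNA) genes, host genes that carry small nucleolar RNAs (snoRNAs) or microRNAs in their introns, and some pseudogenes, which are decayed or inserted copies of genes.

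A first set of sequences shows promoter windows of genes that held such peaks, because the peaks differed in whether they reached the gene start. Each window runs 5′ to 3′ from 250 bases before to 50 bases after an annotated start (RefSeq, GRCm38.p6), and capitals mark bases under the control peak. The windows are those of Gas5 at chr1:161034916-161035215, Snhg12 at chr4:132308428-132308727, Zfas1 at chr2:167062684-167062983 and Gm40904 at chr13:12925512-12925811, all on the plus strand.
Gas5: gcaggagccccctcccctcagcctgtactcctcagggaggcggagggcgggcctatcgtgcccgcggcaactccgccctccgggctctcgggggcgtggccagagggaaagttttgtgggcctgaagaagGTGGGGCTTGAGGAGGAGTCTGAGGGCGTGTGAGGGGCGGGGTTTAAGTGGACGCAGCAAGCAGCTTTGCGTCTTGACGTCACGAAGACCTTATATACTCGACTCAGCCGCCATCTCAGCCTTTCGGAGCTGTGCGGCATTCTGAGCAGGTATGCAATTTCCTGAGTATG
Snhg12: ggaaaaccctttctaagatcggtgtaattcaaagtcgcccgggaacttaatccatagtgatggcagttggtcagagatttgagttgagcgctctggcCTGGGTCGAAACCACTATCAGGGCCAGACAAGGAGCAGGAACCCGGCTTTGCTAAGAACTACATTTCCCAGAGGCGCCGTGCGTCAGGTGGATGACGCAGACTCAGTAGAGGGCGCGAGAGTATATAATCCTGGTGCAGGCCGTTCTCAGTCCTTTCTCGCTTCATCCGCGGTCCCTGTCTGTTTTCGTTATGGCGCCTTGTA
Zfas1: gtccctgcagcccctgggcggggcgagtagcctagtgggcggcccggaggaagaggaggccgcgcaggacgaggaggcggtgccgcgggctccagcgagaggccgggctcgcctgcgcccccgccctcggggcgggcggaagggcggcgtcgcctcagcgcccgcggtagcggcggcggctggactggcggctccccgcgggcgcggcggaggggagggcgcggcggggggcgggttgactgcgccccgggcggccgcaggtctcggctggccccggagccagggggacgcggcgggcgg
Gm40904: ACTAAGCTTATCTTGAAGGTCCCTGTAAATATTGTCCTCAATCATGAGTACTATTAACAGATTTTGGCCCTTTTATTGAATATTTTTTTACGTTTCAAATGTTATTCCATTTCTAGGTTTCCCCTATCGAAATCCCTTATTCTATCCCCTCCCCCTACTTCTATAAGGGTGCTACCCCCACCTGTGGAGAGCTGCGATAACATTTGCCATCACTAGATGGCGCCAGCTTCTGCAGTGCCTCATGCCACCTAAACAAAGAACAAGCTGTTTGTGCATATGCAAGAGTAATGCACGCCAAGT
The control peak covered 170 of 300 bases at this Gas5 start, 203 at Snhg12, 0 at Zfas1 and 300 at Gm40904. After knockdown a peak covered 0, 0, 0 and 300 bases. The windows held 19, 18, 47 and 5 CG dinucleotides in the same order, and the median over 32851 promoter windows of the table was 7. Gas5 has a second annotated start further upstream, which no peak touched.

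A second set shows microRNAs encoded under these peaks, printed to name what the lost and kept peaks contain. Capitals mark the seed, bases 2 to 8 of the mature microRNA (RefSeq, GRCm38.p6).
miR-17-5p: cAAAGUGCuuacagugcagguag
miR-20a-5p: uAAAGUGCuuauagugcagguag
miR-18a-5p: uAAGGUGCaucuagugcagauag
miR-19a-3p: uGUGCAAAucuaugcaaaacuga
miR-19b-3p: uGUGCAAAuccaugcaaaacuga
miR-92a-3p: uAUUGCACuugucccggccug
miR-379-5p: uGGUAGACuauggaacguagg
miR-7216-5p: uGGAGAGCuggcagaggacccaga
The first 6 come from the Mir17hg cluster, which promotes proliferation. In it miR-17-5p and miR-20a-5p share the seed AAAGUGC, and miR-19a-3p and miR-19b-3p share GUGCAAA. One control peak at chr14:115043282-115047787 spanned all 6 hairpins, and it was lost. The hairpin of miR-379-5p was also under a lost peak, while that of miR-7216-5p, within the lncRNA gene Gm10505, was under both a control and a knockdown peak. In all, 20 of the 919 hairpins on these chromosomes lay wholly under 9 of the control peaks in non-coding genes, and 1 of those 9 was kept. Of all 850 peaks 18.0% were kept, and 9 peaks are too few to be told apart from that share.

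The first question was how many of these peaks were still called after knockdown. A control peak is called kept here when a knockdown peak overlapped it by at least 1 bp, and lost otherwise, so that lost means not called and not a measured absence of the mark. Of the 850 peaks 153 were kept and 697 lost, a kept share of 18% (15.5 to 20.8), where 6.55% of all control peaks on chromosomes 1 to 19 were kept. Ranges in parentheses after a share are exact Clopper-Pearson 95% binomial intervals. Those of a ratio of shares (on the log scale) and of a difference of shares are 95% normal-approximation intervals. All cover counting error only, and neighbouring peaks are not independent. Peaks in protein-coding genes were kept in 3.86% of cases (3.63 to 4.11, 985 of 25500) and intergenic peaks in 20.7% (19.5 to 22.0, 859 of 4149). The share in non-coding genes was thus 4.66 times (3.99 to 5.45) that in protein-coding genes, and 2.70 percentage points below the intergenic share, a difference of -2.70 with an interval of -5.57 to 0.158. By length, 0.306 of 2.12 Mb under the 850 peaks, or 14.5%, stayed under knockdown peaks, compared with 2.26% in protein-coding genes and 16.0% between genes.

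**Figure D1:**
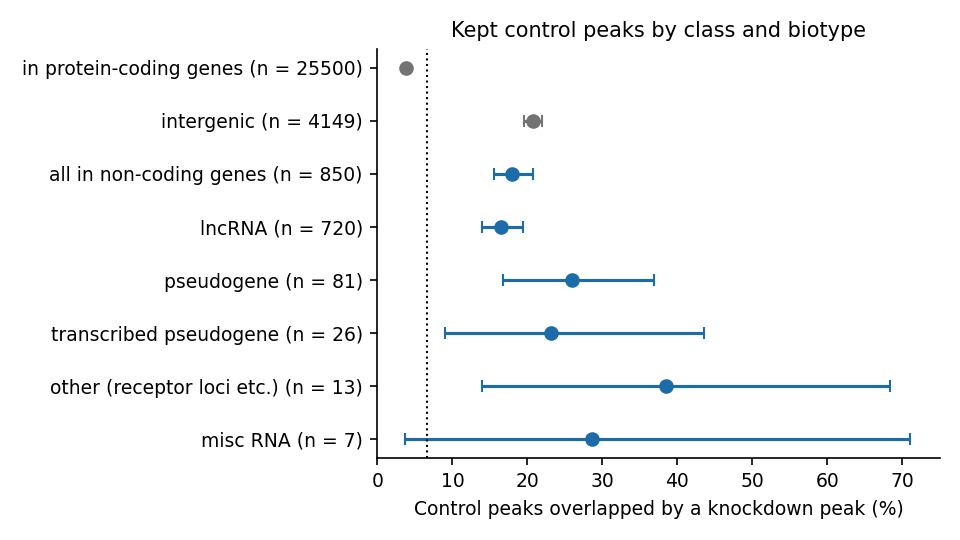
Percent of control peaks overlapped by a knockdown peak (x axis) for each class and biotype (rows, with the number of peaks), points with exact 95% binomial intervals and a dotted line at 6.55% for all control peaks on chromosomes 1 to 19. Peaks in non-coding genes (18%) lie near the intergenic ones (20.7%) and above those in protein-coding genes (3.86%), and the small biotypes have wide intervals.

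The authors called peaks on the 2 replicates merged, so each condition has 1 list, no replicate spread exists and no p-value is given between conditions. The ratio to protein-coding genes fell to 2.51 when only the highest-scoring peak of each gene was counted and rose to 11.5 with a reciprocal overlap of 50%, a rule that 11.5% of the peaks in non-coding genes and 2.98% of all control peaks met. The kept share fell to 8.35% when only knockdown peaks with a caller score of 100 or more were used, and with that score minimum in both lists the difference from intergenic peaks turned to 1.63 percentage points (-2.12 to 5.38). It was -4.90 (-7.91 to -1.90) among peaks with no base in a protein-coding gene and -5.51 (-8.89 to -2.13) among those at least 5000 bp from one, intervals that do not include 0.

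The libraries and labels were checked once for all results. The merged ChIP libraries kept 36244210 tags in control and 29416169 in knockdown after removal of duplicates, so knockdown peaks were called at lower depth. Of 9 coding genes that mark naive pluripotent cells, 8 carried control peaks over 44.9% to 98.3% of their length, and Dppa5a carried none. None of 18 marker genes of hepatocytes, muscle, fibroblasts, blood and neurons had a base under a control peak. Setd2 itself had 40.1% of its length under control peaks and 0% under knockdown peaks, which describes its chromatin and not its transcript.

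Kept peaks were longer and denser in control than lost ones. Their median length was 3289 bp (quartiles 2308 and 4332) against 1843 bp (1519 and 2456). Tag density is given as tags per kb divided by the mean over the effective genome, which was 19.4 tags per kb in control and 15.7 in knockdown. The median control density was 2.605 times the genome mean in kept and 2.22 times in lost peaks. A longer peak is more easily overlapped, and the caller score moves with length, so these values only describe the kept set. In the scatter of length against density both sets span nearly the whole range.

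**Figure D2:**
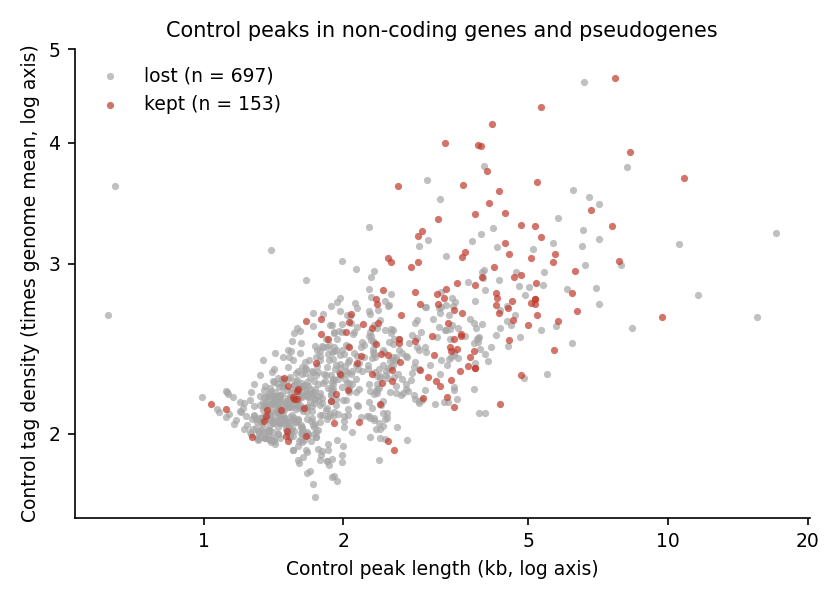
Length (x, kb, log axis) and control tag density (y, times the genome mean, log axis) of the 850 control peaks in non-coding genes and pseudogenes, 1 point per peak, 153 kept in red and 697 lost in grey. Kept peaks are shifted to longer and denser values, with a median length of 3289 bp against 1843 bp, and the sets overlap.

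The gap to protein-coding genes was also present among peaks of like length or density. In each of 5 quintiles of tags per kb the kept share was higher in non-coding than in protein-coding genes. It was 5.86% (3.15 to 9.81) against 0.757% (0.530 to 1.05) in the sparsest quintile and 49.5% (38.9 to 60.0) against 13.2% (12.4 to 14.2) in the densest. In the quintiles of length the shares ran from 6.64% against 0.813% in the shortest to 47.5% against 10.8% in the longest. When protein-coding and intergenic peaks were weighted to the length and density of the 850 peaks, their kept shares were 2.22% and 21.3%. The intervals of non-coding and intergenic peaks overlapped in all quintiles of density. In the quintile of lengths from 1622 to 2112 bp they did not, at 7.21% (4.18 to 11.4) against 16.0% (13.9 to 18.3).

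**Figure D3:**
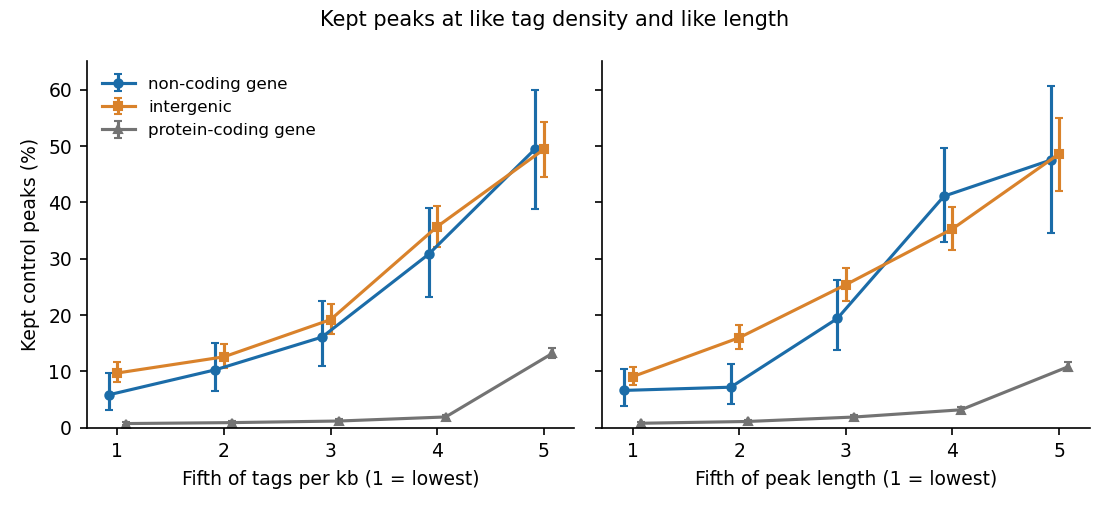
Kept share of control peaks (y, percent, with exact 95% binomial intervals) in 5 equal bins of tags per kb (left) and of length (right), taken over all control peaks on chromosomes 1 to 19, for non-coding genes, intergenic sequence and protein-coding genes. Non-coding genes follow the intergenic peaks and lie above protein-coding genes in every bin, from 5.86% against 0.757% to 49.5% against 13.2% by density.

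What remained at kept sites covered much of the control peak. Knockdown peaks lay over a median of 62.95% of a kept peak (quartiles 42.0% and 78.1%), over at least 10% of it in 149 of 153 cases, over at least 50% in 106 and over all of it in 8. Of all 1997 kept control peaks on chromosomes 1 to 19, 1894 were covered over at least 10% and 1013 over at least 50%. As shares of all peaks, kept or not, 17.5% and 12.5% of those in non-coding genes met these rules. Among all control peaks these shares were 6.21% and 3.32%. Kept peaks in protein-coding genes were longer, with a median of 6471 bp, and were covered over a median of 32.1%. The knockdown peaks at kept non-coding sites had a median density of 2.42 times their own genome mean, and 102 of the 153 kept peaks had a higher relative density in control. The control and knockdown intervals differ in extent, and each had to pass the caller's threshold, so the densities are set side by side only.

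Most of the peaks lay in lncRNA genes. These held 720 peaks, of which 119 (16.5%, 13.9 to 19.4) were kept. Pseudogenes held 81, of which 21 (25.9%, 16.8 to 36.9) were kept, and transcribed pseudogenes 26, of which 6 (23.1%, 8.97 to 43.6) were kept. These intervals overlap, so a difference between lncRNA genes and pseudogenes was not resolved with these numbers. The remaining biotypes were few, with 13 peaks in the class other (5 kept), 7 in miscellaneous RNAs (2 kept), 2 in microRNA genes and 1 in an antisense RNA (none kept). Of the 13 peaks 12 lay in antigen receptor loci (8 in Igk and 1 each in Igh, Igl, Tcra and Tcrg), whose segments are joined in lymphocytes.

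Few non-coding genes held one of the 850 peaks. Of 26377 such genes 2459 had at least 1 base under any control peak, peaks with a midpoint in a protein-coding gene included. One of the 850 peaks was assigned to 634 of them (2.40%), in 535 of 12408 lncRNA genes (4.31%), 70 of 8884 pseudogenes (0.788%) and 16 of 435 transcribed pseudogenes (3.68%). No snoRNA gene (0 of 1286), snRNA gene (0 of 931) or tRNA gene (0 of 391) was the shortest gene at a midpoint. These genes are short, and tRNA genes are transcribed by RNA polymerase III. Among the 634 genes 118 were covered over at least 50% of their length in control and 20 in knockdown. At least 1 peak was kept in 138 of the 634 genes, or 21.8%. Of the 133 genes with 2 or more peaks, 6 kept all, 39 kept some and 88 kept none.

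Pseudogene peaks were often larger than the gene. In 23 of 81 cases the whole pseudogene lay inside the peak, with a median gene length of 793 bp, so the peak there reached beyond the pseudogene. The kept share of those 23 was 34.8% (16.4 to 57.3). Over all biotypes it was 35.1% (20.2 to 52.5, 13 of 37) where the gene lay inside the peak and 16.6% (13.9 to 19.6, 114 of 688) where the peak lay inside the gene. The former peaks were longer, with a median of 2317 bp against 1890 bp. Peaks on a pseudogene can also hold reads from similar copies, and the sources used here do not say how reads with several matches were handled.

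Host genes of snoRNAs, which release snoRNAs from their introns while the spliced RNA is mostly unstable, included several of the most marked non-coding genes. Of 20 such genes 8 held a peak midpoint, and 5 of the 8 kept the peak, against 21.8% of all non-coding genes with such a peak. The 8 were dense peaks, 7 of them in the highest quintile of tags per kb, where 49.5% of all peaks in non-coding genes were kept. Counted instead over every gene touched by a control peak, 17 snoRNA hosts were marked and 5 (29.4%, 10.3 to 56.0) were also touched by a knockdown peak, where 13.1% of all marked non-coding genes were. The 5 were Gas5, Snhg1, Snhg12, Snhg15 and Snhg17.

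The kept snoRNA hosts differed in how much of the gene stayed covered. Gas5, a growth-arrest transcript with many intronic snoRNAs, had 88.7% of its bases under control peaks and 77.4% under knockdown peaks. Its peak at chr1:161035046-161039234 held 340 control tags at 4.19 times the genome mean, and the knockdown peak over it held 132 tags at 2.47 times. Snhg1 went from 96.3% to 82.9% and Snhg12 from 100% to 80.4%. Snhg15 went from 96.7% to 44.4% and Snhg17, with the highest caller score of the group at 1093.41, from 98.1% to 20.9%. The 5 genes thus span most of the range between near-complete and minor residual coverage. Caller scores of their knockdown peaks were 135.58 (Gas5), 134.37 (Snhg12) and 101.75 (Snhg17). Those of Snhg1 (84.02) and Snhg15 (70.21) were below the score minimum of 100 used as an alternative. Zfas1 (93.9%), Snhg4 (90.6%) and Snhg11 (15.6%) had no base under a knockdown peak. Zfas1 and Snhg4 had control densities of 3.66 and 3.46 times the genome mean, within the 3.46 to 4.19 of the kept hosts. Among hosts touched by peaks with midpoints elsewhere, Epb41l4aos (97.7%), Snhg3 (95.6%), Dancr (91.6%) and Snhg20 (90.8%) were as widely covered in control, and none had a knockdown peak.

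In 6 genes of the list named abundant nuclear RNAs 12 peaks were found, and 0 were kept. The name is only that of the list, and where each RNA resides in the cell was not examined. The interval of 0 to 26.5% includes the 18% of all peaks in non-coding genes. Malat1, the source of a nuclear-speckle RNA, was covered over 89.6%, and its peak at chr19:5795751-5802006 held 434 tags. Neat1, the scaffold of paraspeckles, was covered over 16.5%. Tug1 (77.5%), Oip5os1 (76.7%), which is also known as Cyrano, Miat (8.94%) and Pvt1 (6.59%, 7 peaks), the neighbour of Myc, completed the group. The densest peak in it, that of Malat1 at 3.58 times the genome mean, lay within the density range of the kept snoRNA hosts.

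Of the lncRNA genes associated with pluripotency, 9 of 23 held 18 peaks, and 2 (11.1%, 1.38 to 34.7) were kept. Lncenc1, a lncRNA of naive embryonic stem cells, carried 6 peaks over 29.7% of its length, and none was kept. Platr14 went from 80.7% to 0%, Platr5 from 100% and Platr4 from 45.1%. Tunar (9.20%), Platr20 (9.92%) and Sox2ot (6.48%), which hosts Sox2, also had none. The kept peaks were in Platr3 and Platr11. Platr3 had 39.8% of its length under control peaks and 32.8% under knockdown peaks, and Platr11 had 5.82% and 5.32%. The Platr11 peak held 184 control tags at 3.61 times the genome mean, and 90.4% of its length stayed covered. The knockdown peaks over Platr3 and Platr11 had caller scores of 75.7 and 56.32, both below the score minimum of 100 used as an alternative. With 2 of 18 the share has an interval that includes the 18% of all peaks in non-coding genes.

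Imprinted lncRNA genes held 8 peaks in 4 of 9 genes, and 0 were kept (0 to 36.9%), an interval that includes the 18% of all peaks in non-coding genes. Meg3, the maternally expressed lncRNA of the Dlk1-Dio3 region, held 1 peak of 15580 bp with 797 tags. All control peaks together covered 86.4% of the gene. Rian, which carries snoRNAs downstream of it, held 4 peaks, and Mirg, a microRNA-rich gene further downstream, held 2. All control peaks together covered 22.0% of Rian and 30.9% of Mirg. Together with Mir379 and Mir376c these genes held 9 peaks, of which 0 were kept (0 to 33.6%), again with 18% inside the interval. This count is of 5 named genes and not of the whole region. Between Mirg and Dio3os the lncRNA gene Gm34554 held 2 peaks with 1 kept, and Dio3os held 1 lost peak. Airn, the antisense transcript that silences Igf2r, held 1 peak of 1341 bp, and all control peaks together covered 7.48% of the gene. Gnasas1, an antisense RNA of the imprinted Gnas locus that the list did not hold under this symbol, had 1 lost peak of 176 tags. It was the only one of the 850 with the RefSeq biotype antisense RNA.

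Few microRNA genes and hosts were assigned a peak midpoint outside protein-coding genes. Of 1108 genes matching the list 7 held 8 peaks, and 1 was kept (12.5%, 0.316 to 52.7), against 18% of all peaks in non-coding genes, which this interval includes. Mir17hg was covered over 100% of its RefSeq length, Mir22hg over 48.9% and Mirc35hg, the host of miR-96 and miR-183, over 17.8%, and all 3 went to 0%. The kept peak lay in Mirt1, a lncRNA gene that the symbol pattern admitted and that is no microRNA gene. Of its length 8.72% was under control peaks and 9.75% under knockdown peaks. A control peak touched 329 further genes of this list, and 257 of these overlapped a protein-coding gene, where the mark cannot be assigned to either. In all 336 of the 1108 genes were touched by a control peak, a larger share than the 2459 of 26377 over all non-coding genes.

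**Figure D4:**
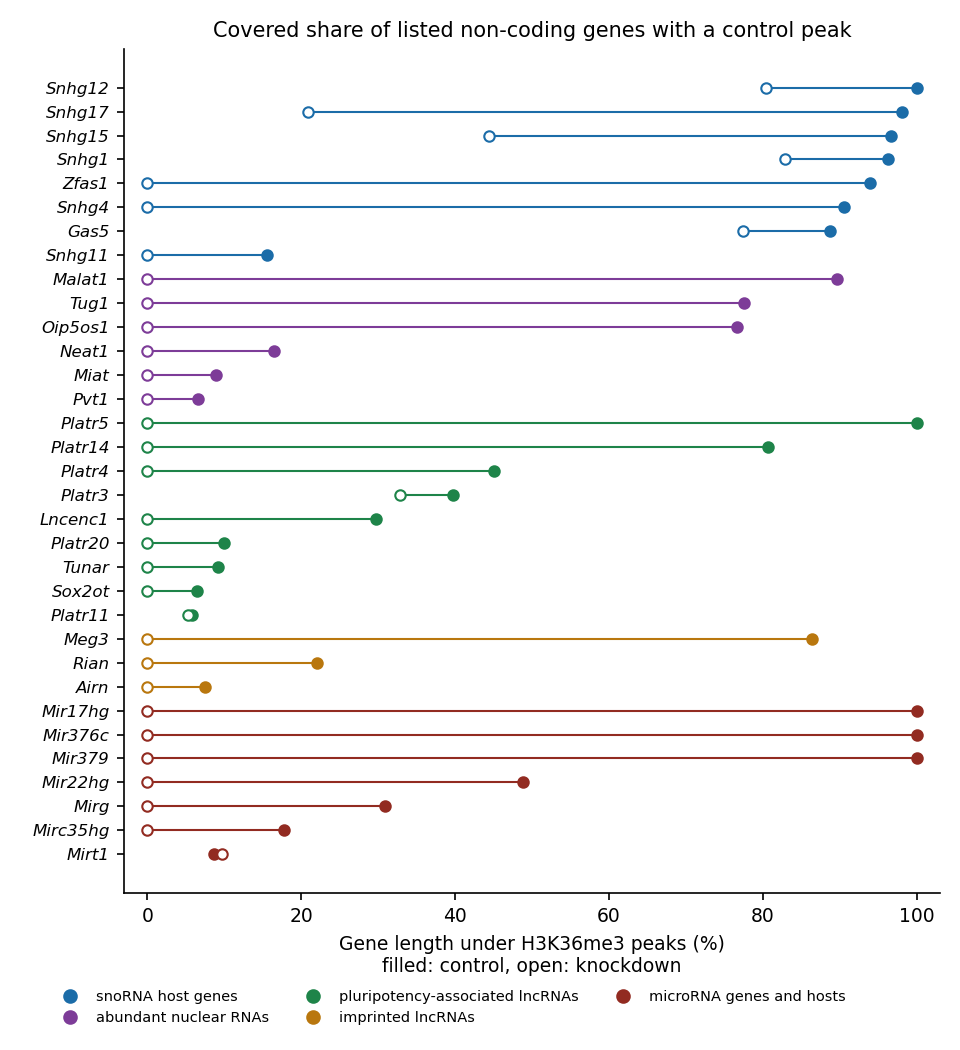
Percent of gene length under control peaks (filled points) and knockdown peaks (open points) for each gene with a peak midpoint in 5 lists, 1 row per gene, coloured by list. Snhg1, Snhg12 and Gas5 keep 77.4% to 82.9%, while Malat1, Meg3, Mir17hg and Platr14 go from at least 80.7% to 0%. Among the snoRNA hosts Zfas1 (93.9%) and Snhg4 (90.6%) also go to 0%, and Snhg17 goes from 98.1% to 20.9%.

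The remaining lists were sparse. Developmental lncRNA genes thought to be low in pluripotent cells held 2 peaks, in Hotairm1 (49.3%) of the HoxA cluster and Bvht (27.3%), and both were lost. Opposite-strand transcripts held 13 peaks in 11 of 216 genes with 1 kept (7.69%, 0.195 to 36.0), in Zfp85os. The highest caller scores among them were those of Rab10os, Oip5os1, Ino80dos and Zfp85os, which were covered over 59.6%, 76.7%, 44.4% and 28.1% in control. The zinc finger pseudogene Zfp862-ps had 2 lost peaks. Ribosomal protein pseudogenes (282) and tRNA genes (391) held none. Olfactory and vomeronasal pseudogenes held 8 peaks in 5 of 570 genes, and 3 were kept (37.5%, 8.52 to 75.5). This interval and that of the opposite-strand transcripts include the 18% of all peaks in non-coding genes. The 4 with the highest scores lay in Vmn2r-ps54, Vmn2r-ps23, Vmn2r-ps16 and Vmn1r-ps123. The first 2 were kept, with 73.6% and 76.8% of the peak under knockdown peaks. These receptor pseudogenes have no known role in stem cells.

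The 12 kept peaks with the most sequence under knockdown peaks lay mostly in lncRNA genes of no described role. The longest remnant was in Gm41048 at chr13:104912039-104921736, where 3 knockdown peaks covered 8392 bp, 86.5% of the peak. Control and knockdown densities there were 2.64 and 2.61 times their genome means. Gm40904 at chr13:12925091-12932767 was covered by 1 knockdown peak over all 7677 bp, at 4.67 times the genome mean in control and 4.78 in knockdown, the highest control density among the 850 peaks. The caller's fold over local background at that peak was 3.76 in the authors' table, close to the lower quartile of 3.73 over the 850 peaks. Gm46840 had a like pattern, with 98.9% covered, densities of 3.74 and 3.43 and a caller fold of 3.73. A930001A20Rik kept 6041 bp (77.0%), Gm41664 4488 bp (88.6%) and Gm16685 4227 bp (81.8%). D14Ertd670e kept 3812 bp (88.9%) and Gm41570 3639 bp (80.3%). Among pseudogenes Gm3744 kept 4595 bp (67.3%), Vmn2r-ps54 3802 bp (73.6%) and Gm15784 3693 bp (87.3%). AU020206 had the highest caller score of the 850, 1230.31, with 771 tags over 10809 bp, and 35.1% of its peak stayed covered. Among these 12 peaks the relative density was higher in knockdown than in control only at Gm40904.

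The 8 lost peaks with the highest caller scores were as strong in control as many kept ones. Snhg4 led with a score of 1043.33 and 476 tags. Rab10os (901.54), Gm2381 (898.72), 2400006E01Rik (852.04) and Gm30823 (818.17) followed, then Gm40627 (755.14), Platr14 (715.44) and Oip5os1 (699.81). Their control densities ran from 2.99 to 3.79 times the genome mean, above the 2.92 of the upper quartile of the kept set. Gm2381 is a transcribed pseudogene with 3 peaks, of which 1 was kept, so lost and kept peaks occurred in the same gene.

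By sequence under peaks the largest territories were 2400006E01Rik, Gm51939, Igk, Lncenc1 and Gm16685. 2400006E01Rik had 19748 bp under 6 peaks, 71.7% of the gene, and none was kept. Gm51939 had 19660 bp under 7 peaks with 3 kept, and its coverage went from 33.5% to 13.8%. Igk, the immunoglobulin kappa locus of 3171119 bp, had 18852 bp under 8 peaks with 2 kept. Lncenc1 had 18636 bp under 6 lost peaks, and Gm16685 had 17262 bp under 4 peaks with 2 kept. The highest-scoring peaks of the remaining biotypes were in 3110053B16Rik for miscellaneous RNAs (221 tags, 26.8% of the peak kept) and in Tcra, the T-cell receptor alpha locus (271 tags, 71.0% kept). Mir376c was the higher of the microRNA genes, with 76 tags and no knockdown peak.

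The kept share was set against the distance from the nearest protein-coding gene. It was 11.9% (3.98 to 25.6) for the 42 peaks that touched such a gene, 12.7% (7.57 to 19.5) up to 5 kb away and 14.6% (10.2 to 20) from 5 to 20 kb. It was 18.8% (13.3 to 25.3) from 20 to 50 kb, 23.5% (16.2 to 32.2) from 50 to 100 kb and 23.8% (17.4 to 31.1) beyond. Neighbouring intervals overlap, as do the first and the last. The peaks beyond 100 kb were shorter and sparser than those touching a gene, with medians of 1866 bp and 42.5 tags per kb against 2314 bp and 46.5. Intergenic peaks ran from 4.91% (3.29 to 7.02) where they touched a protein-coding gene to 28.2% (25 to 31.7) beyond 100 kb. Where the nearest protein-coding gene itself held a control peak the kept share was 15.6% (12.5 to 19, n = 501 peaks), and 21.5% (17.3 to 26.2, n = 349 peaks) where it did not. Only 37 of the 850 peaks had a Zfp, Zscan or Zkscan zinc finger gene as nearest protein-coding gene, and 9 of these (24.3%, 11.8 to 41.2) were kept. By chromosome the share ranged from 7.32% (3 of 41, chromosome 15) to 32.3% (10 of 31, chromosome 14), and it was above the share in protein-coding genes on each of the 19 chromosomes.

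**Figure D5:**
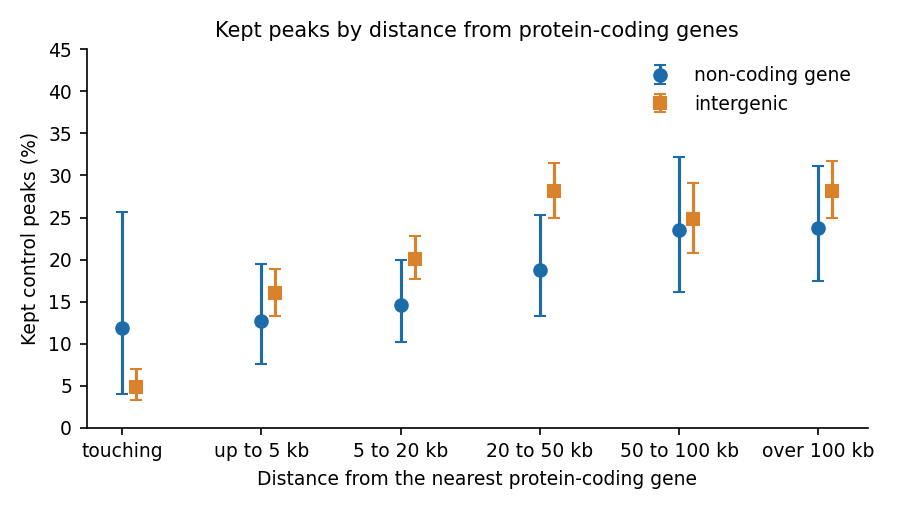
Kept share of control peaks (y, percent, with exact 95% binomial intervals) by distance from the nearest protein-coding gene (x) for peaks in non-coding genes and intergenic peaks. In non-coding genes it runs from 11.9% at 0 bp to 23.8% beyond 100 kb with overlapping intervals. Between genes it runs from 4.91% to 28.2%, and it is the higher of the classes in each bin off the protein-coding gene.

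Peaks in non-coding genes reached the gene start more often than those in protein-coding genes. A promoter window was known for 563 of the 850 peaks, in 416 genes, and 45 peaks (7.99%, 5.89 to 10.5) lay over a window of their gene. In protein-coding genes 178 of 20619 did (0.863%, 0.742 to 0.999). The host genes were shorter, with a median over peaks of 23162 bp against 47933 bp. Among kept peaks the share was 17.5% (10.6 to 26.6, 17 of 97) and among lost ones 6.01% (4.03 to 8.57, 28 of 466). Since kept peaks were longer, the summit was also used, and it lay within 1000 bp of a start in 8.25% (3.63 to 15.6) of kept and 5.15% (3.33 to 7.57) of lost peaks, which overlap. Peaks over 2 kb were kept in 44.1% (27.2 to 62.1, n = 34) over a window and 26.6% (21.2 to 32.6, n = 248) elsewhere. Up to 2 kb the shares were 18.2% (2.28 to 51.8, n = 11) and 5.19% (2.86 to 8.55, n = 270). At both lengths the share was higher over a window, with overlapping intervals. Along the gene from its first start to its end, 546 summits were spread evenly, with 33.3% in the first, 35.7% in the middle and 31.0% in the last of 3 equal parts. The corresponding shares of kept peaks were 33.3%, 36.6% and 30.1%. Mir17hg, Gm41048 and Gm40904 were covered over their whole RefSeq length in control, whereas the peak of Zfas1 began after its start. The RefSeq record of Mir17hg begins at chr14:115044390, downstream of several hairpins of its cluster, such as Mir17 at chr14:115043671-115043754. Its annotated start thus lies within the cluster.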

How the data were processed

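H3K36me3 ChIP-seq and input libraries (4 groups of 2) were grouped by their titles. Per the submitters' processing notes, FastQC 0.11.5, Bowtie 1.1.2 and mm10 were used. Peak calling by the authors used MACS 1.4.2, per the file headers, on merged replicates against merged inputs, with a p cutoff of 1e-05, 1 tag kept per position and the larger data set scaled to the smaller. Total ChIP tags were 42509111 in control and 38670982 in knockdown, input tags 39607031 and 37471825. The deposited tables give per peak the count of tags, the caller's score (10 times the negative log10 of p), a fold ratio over local background and an FDR in percent. Deposited BED lists hold 30595 and 2961 of the same peaks with equal fold values and were not used. Score and fold are the authors' own and only describe or rank peaks within a list.

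Lists held 30634 control and 3040 knockdown peaks. Genes came from a RefSeq table (GRCm38.p6, the mm10 assembly) without strand or exons. Strand came from the promoter table. The shortest gene at the midpoint gave the biotype. Overlaps were computed with Python 3.11.15, pandas 2.3.3 and scipy 1.17.1 and checked on 20 simulated interval sets. A gene's covered share counts all peaks. Weighting used 5 by 5 bins of tags per kb and length.

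The members and 11 gene lists were chosen with earlier results of these data known. The rule for named genes took the 12 kept peaks with most knockdown-covered base pairs, the 8 lost peaks with the highest score, the 5 genes with most covered base pairs, the best peak per biotype and listed genes (of the largest lists, the 4 highest-scoring). Printed sequences, the grouping of the Dlk1-Dio3 genes, the weighting and the promoter, context and distance measures were chosen after values were seen. Alternatives changed the overlap rule, peak thresholds, placement, chromosomes and gene models.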

Additional observations from a re-analysis of the deposited data

How the results depend on the processing

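Replicates could not be left out in turn, because each list was called on both replicates merged. No paired analysis was possible because the deposited tables do not separate the replicates. The kept share of peaks in non-coding genes stayed within its main interval under 10 of 13 alternatives. It was 11.5% with a reciprocal overlap of 50%, 12.5% when knockdown peaks had to cover 50% of the control peak and 8.35% when only knockdown peaks scoring 100 or more were used. For lncRNA genes these 3 settings gave 11.1%, 11.7% and 7.92%. For pseudogenes the first and the last gave 14.8% and 12.3%. The ratio to protein-coding genes was 11.5, 11 and 5.92 under the same 3 settings, 7.71 with a score of 100 or more in both lists and 2.51 with only the highest-scoring peak of each gene, an alternative chosen after seeing the data, as was leaving out the antigen receptor loci. The difference from intergenic peaks was 1.63 percentage points with the score minimum in both lists and 0.327 with it in the knockdown list alone, against -2.70. Its interval lay below 0 under 3 alternatives, those that removed peaks touching or near protein-coding genes (-4.90 and -5.51) and that without antigen receptor loci (-3.04). The number of peaks was 426 with the score minimum and 137 without Gm and Rik genes. The cause of these shifts was not tested, and some of the settings leave smaller sets. The part of depth in the lost calls was not tested; kept tags were 36244210 in control and 29416169 in knockdown.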

Other observations

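The genes in which all of 2 or more peaks were kept numbered 6 and were picked out after their values were seen. They were the transcribed pseudogene Gm21011, the pseudogene Gm12026 and the lncRNA genes Gm32247, Gm30366, Gm41259 and Gm29677, each with 2 kept peaks. None belongs to the gene lists described above.

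The only kept peak over a microRNA hairpin was that of Gm10505 with Mir7216, also picked out after its values were seen. It held 115 control tags at 2.33 times the genome mean and a caller score of 82.56, and the knockdown peak that spans it held 164 tags at 2.65 times, with a score of 198.8. A second control peak in Gm10505, with 90 tags, was lost.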
